A study of Macaca mulatta with 24 samples.

Results

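A set of 10 genes that encode neuropeptides of the cerebral cortex was followed in rhesus monkeys fed a standard or a high-fat, high-sugar diet: SST, NPY, CCK, VIP, PENK, TAC1, CRH, CORT, PDYN and ADCYAP1. Every probe that the annotation of the array assigned to one of these 10 symbols was taken, whatever its value. Of the 10 genes, 9 had a probe (12 probes in all among 47323 on the array), and PENK was not analysed here because no probe carried its symbol in the annotation used. A probe was called detected on an array when its detection p, the chance of so bright a signal among negative control beads, was under 0.01, and it was kept when this held on at least 4 of 24 arrays. Of the 12 probes 11 were kept, and they stood for 8 of the 9884 genes that had a kept probe.

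Neuropeptides are cut from longer precursors, stored in dense-core vesicles and released to act on receptors coupled to G proteins. In the cortex most of them are made by inhibitory interneurons, and several define interneuron classes: SST, NPY and CORT in dendrite-targeting cells, VIP and often CRH in cells that inhibit other interneurons, and CCK in a class of basket cells, although CCK and ADCYAP1 are also made by excitatory neurons. For a peptide made by a small share of the cells, the transcript level in bulk cortex depends on their number and on their RNA per cell. CCK and ADCYAP1, made by excitatory neurons as well, cannot be read as transcripts of interneurons alone.

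Adult male Macaca mulatta, 7 to 13 years old, were assigned to 3 diets for 24 months, and 1 array was run per animal. SD-fed animals (n = 4) received chow in which fat gave 13% of the calories and sucrose stayed under 5% of the weight. HFS animals (n = 10) received food with 42% of calories in fat and 27% sucrose, and HFS+R animals (n = 10) the same food with resveratrol (RSV) in a flavoured treat given 2 times a day, at 40 mg per treat in year 1 and 240 mg in year 2. The SD and HFS animals were given placebo treats. All animals were housed singly, anaesthetized and perfused with cold Ringer's solution before the brain was taken, so that no group was free of these procedures. The tissue is labelled cerebral cortex, and the extraction protocol narrows it to temporal neocortex. Elsewhere the study names prefrontal or frontal cortex, so the region is not settled. The beadchip (HumanHT-12 V4) carries human probes, and how well each one matches the monkey transcript was not tested, so levels were not compared between genes.

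Levels are given on a log2 scale on which every array has the same mean and SD. The SD of the log2 signal before this step ran from 1.40 to 1.57 over the SD arrays, from 1.32 to 1.5 over the HFS arrays and from 1.42 to 1.58 over the HFS+R arrays. Between 11413 and 14890 probes were detected per array, the fewest in SD replicate 3. Over all genes, 0 differed between HFS and SD at an adjusted p under 0.05, 1582 between HFS+R and HFS, and 623 between HFS+R and SD. Of marker genes of neurons, 13 of 16 for excitatory neurons and 15 of 25 for interneurons were kept, as were 5 of 12 from a list for hippocampus and amygdala. These lists do not define the neocortex.

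Of the 12 neuropeptide probes, 9 were detected on all 24 arrays: those of SST, NPY, CCK and CRH, both probes of VIP and all 3 of TAC1. SST gave signals of 661 to 1908. CORT was detected on 17 of 24 arrays, namely 3 of 4 SD, 5 of 10 HFS and 9 of 10 HFS+R, and ADCYAP1 on 16 arrays, namely 3 of 4 SD, 7 of 10 HFS and 6 of 10 HFS+R. Both genes were therefore measured close to the background. PDYN, the precursor of the dynorphins, was detected on 0 of 24 arrays: its signal ran from 48.9 to 62.8 and its lowest detection p was 0.0948. No level of PDYN was compared between diets for this reason.

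None of the 8 kept neuropeptide genes passed the test in any of the 3 comparisons with limma, at an adjusted p under 0.05 over all 9884 genes. Between HFS and SD this count of 0 stood against 0% of all genes. Between HFS+R and HFS it stood against 16% of all genes, and between HFS+R and SD against 6.3%. At an unadjusted p under 0.05 the counts were 0 of 8 (12.6% of all genes), 3 of 8 (31.4%) and 1 of 8 (20.4%). The 3 genes in HFS+R vs HFS were VIP, TAC1 and CORT, and the gene in HFS+R vs SD was TAC1. With looser thresholds after those of the study (unadjusted p below 0.05, a Z ratio beyond 1.5 in size, and a limit of 0.3 on the false discovery rate, written with a greater-than sign in the methods and read here as an upper limit), the counts were 0 of 8 in HFS vs SD (5.38% of all genes), 3 of 8 in HFS+R vs HFS (26.4%) and 1 of 8 in HFS+R vs SD (17.6%).

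The direction of HFS+R vs HFS was shared by all 8 genes. Each of the 8 had a higher mean in HFS+R than in HFS, where 55.9% of all genes did, and the median difference was 0.15 against 0.02 over all genes. The values ran from 0.03 for SST to 0.42 for VIP. SST (SE 0.21), ADCYAP1 (0.04, SE 0.13) and CRH (0.04, SE 0.13) were close to 0 for their SE. Of 24 fits that each left out 1 array, the sign changed in 7 for SST, 2 for ADCYAP1 and 2 for CRH. Several of the 8 genes went together between animals, so their directions are not independent of each other. For CRH the sign depended on the scaling, since its difference was -0.0029 after quantile normalization and -0.0036 with neqc. In HFS vs SD, 6 of the 8 genes were below 0, with a median of -0.04 against -0.03 over all genes. These 2 comparisons share the 10 HFS arrays, so a low or high HFS mean enters both.

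**Figure D1:**
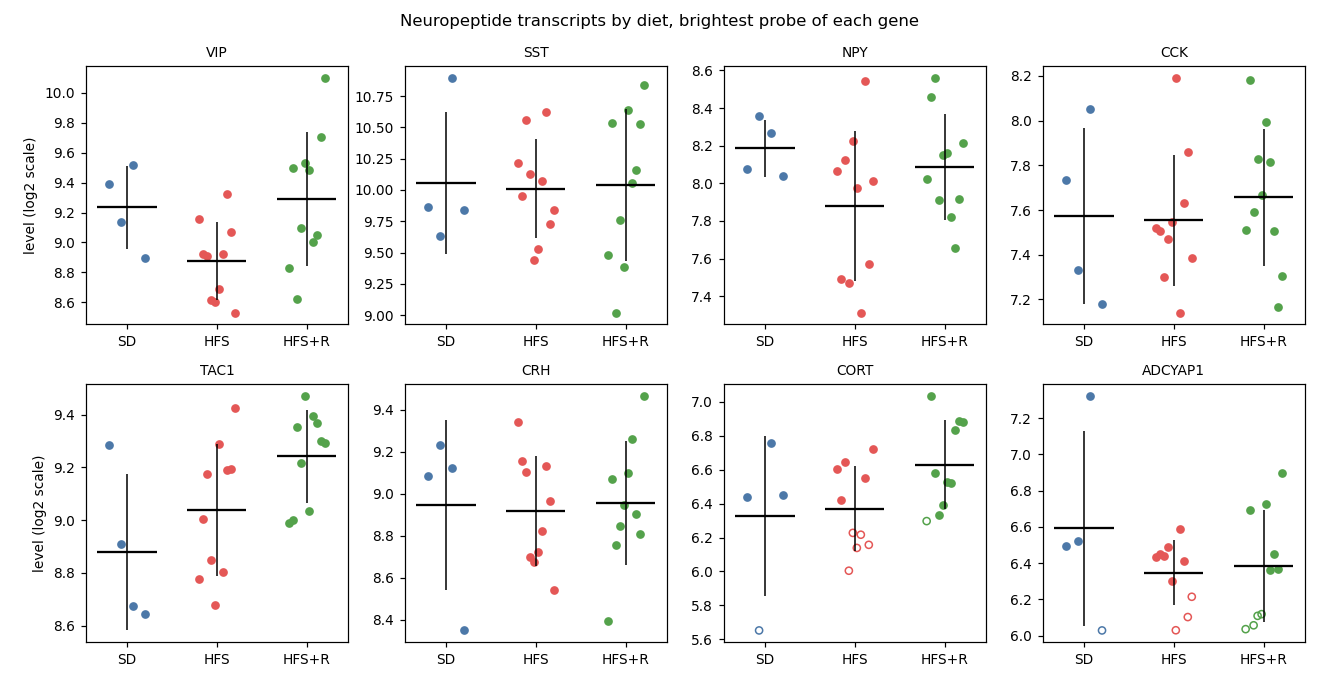
Level on a log2 scale of each neuropeptide gene (brightest probe) by diet; each point is 1 animal, filled where the probe was detected and open where it was not, horizontal lines are group means and vertical lines 1 SD. VIP reached 10.10 in an HFS+R animal against at most 9.32 in HFS animals, while the SST ranges of the 3 diets overlapped.

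VIP, vasoactive intestinal peptide, marks interneurons that mainly contact other interneurons. Its brighter probe stood at 9.39, 9.14, 9.52 and 8.90 in the 4 SD animals. In HFS animals the lowest, median and highest levels were 8.53, 8.92 and 9.32, and in HFS+R animals 8.62, 9.29 and 10.10. The groups overlapped, with 5 of 10 HFS+R animals above every HFS animal and 8 of 10 above the HFS mean. VIP was 1.33-fold higher in HFS+R than in HFS (95% interval 1.08 to 1.65), a log2 difference of 0.42 with an SE of 0.15 and an adjusted p of 0.0532 by limma. That value lies just outside the threshold, and VIP ranked 1665 of 9884 genes by p. The second VIP probe gave 0.42 with an SE of 0.15 (adjusted p = 0.0598 over 15531 probes), and the residuals of both probes went together over the 24 arrays (r = 0.82 after subtraction of diet means).

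VIP in HFS animals was also below SD, at 0.78-fold (95% interval 0.59 to 1.03), with a log2 difference of -0.36, an SE of 0.19 and an adjusted p of 0.437. Here 9 of 10 HFS animals lay under the SD mean. The second probe gave only -0.13 for the same comparison (SE 0.20, adjusted p = 0.821). HFS+R and SD animals had VIP means of 9.29 and 9.24, a difference of 0.06 with a 95% interval from -0.35 to 0.46. The lower VIP level in HFS than in SD was thus seen mainly with the brighter probe, and it did not pass the test with either.

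TAC1 encodes the precursor of the tachykinins substance P and neurokinin A. Its 3 probes are annotated to 3 different transcripts of the gene, and their residuals correlated with each other at r = 0.78 to 0.83 over the 24 arrays. The brightest probe, which stood for the gene, was at 9.29, 8.91, 8.67 and 8.64 in SD animals. It ran from 8.68 through a median of 9.09 to 9.42 in HFS and from 8.99 through 9.30 to 9.47 in HFS+R. HFS and HFS+R overlapped for this probe, and only 1 HFS+R animal was above every HFS animal. It differed by 0.20 in HFS+R vs HFS, with an SE of 0.10 and an adjusted p of 0.156. Against SD it was 0.36 higher in HFS+R, with an SE of 0.13 and an adjusted p of 0.0989, with 10 of 10 HFS+R animals above the SD mean.

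The TAC1 probe ILMN_2342541 separated HFS+R from the other diets further, though not HFS from SD. It stood at 8.31, 7.95, 7.86 and 7.77 in SD animals, from 7.77 through 8.13 to 8.23 in HFS, and from 8.08 through 8.49 to 8.68 in HFS+R. For this probe 8 of 10 HFS+R animals were above every HFS animal, and the remaining animals overlapped. Tested probe by probe with limma, it rose 1.26-fold in HFS+R vs HFS (log2 difference 0.34, SE 0.08, adjusted p = 0.00914), where 9.06% of all kept probes were called higher. It also rose 1.37-fold in HFS+R vs SD (log2 difference 0.45, SE 0.11, adjusted p = 0.0113), where 2.56% of kept probes were called higher. Between HFS and SD its log2 difference by limma was 0.11 (SE 0.11, adjusted p = 0.697). The highest SD animal, at 8.31, lay within the HFS+R range. The third TAC1 probe, ILMN_1790270, was 0.28 above HFS in HFS+R animals, with an SE of 0.10 and an adjusted p of 0.0662, and 0.29 above SD, with an SE of 0.13 and an adjusted p of 0.208. Of the 11 kept neuropeptide probes ILMN_2342541 was the only one called.

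The residuals of TAC1 followed the SD of the log2 signal of the arrays (r = 0.56 over 24 arrays, against -0.44 for SST to 0.42 for NPY among the others), and that SD was higher in HFS+R (mean 1.48) than in HFS (mean 1.42). With the array SD as a covariate, the difference of ILMN_2342541 in HFS+R vs HFS was 0.21 (adjusted p = 0.0985) and that of the brightest TAC1 probe was 0.07 (adjusted p = 0.732). In HFS+R vs SD the same covariate left 0.49 for ILMN_2342541 (adjusted p = 0.00118) and 0.40 for the brightest probe (adjusted p = 0.0231). Since the array SD differed between HFS and HFS+R, these fits cannot tell it apart from diet, and its part was not tested.

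**Figure D2:**
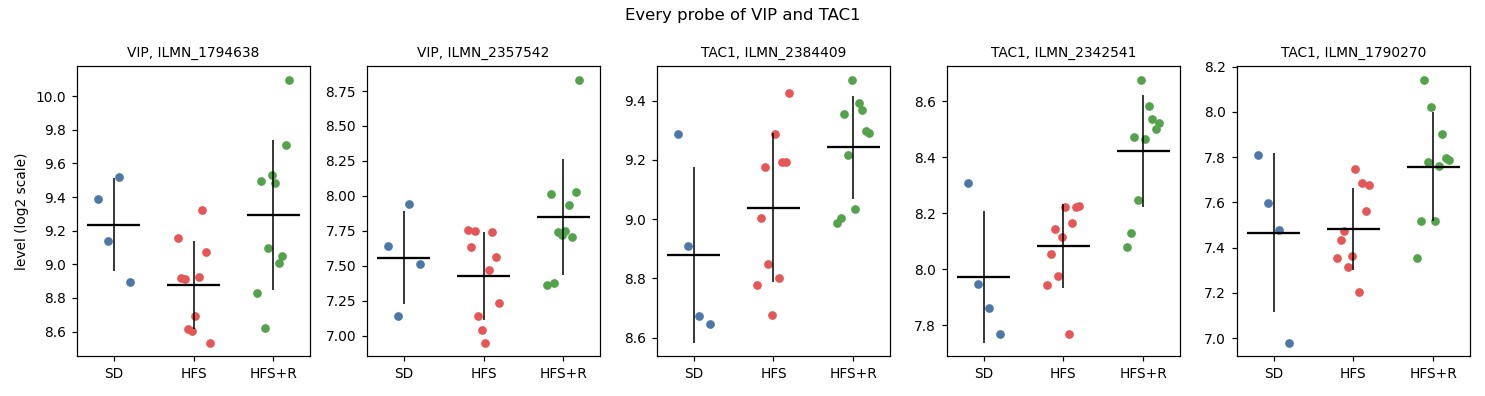
Level on a log2 scale of the 2 probes of VIP and the 3 probes of TAC1 in SD, HFS and HFS+R animals; points are animals, horizontal lines group means and vertical lines 1 SD. For TAC1 ILMN_2342541, 8 of 10 HFS+R animals lie above the highest HFS animal at 8.23, and for VIP both probes show the same high HFS+R animal.

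CORT encodes cortistatin, a peptide related to somatostatin that binds the same receptors. Its levels were 6.44, 5.65, 6.76 and 6.45 in SD animals, the second of these not detected. They ran from 6.00 through 6.32 to 6.72 in HFS and from 6.30 through 6.55 to 7.03 in HFS+R. Of the HFS+R animals 4 of 10 lay above every HFS animal. CORT was 1.2-fold higher in HFS+R than in HFS (log2 difference 0.26, SE 0.12, adjusted p = 0.152). CORT was detected on 9 of 10 HFS+R and 5 of 10 HFS arrays. Detection is called from the same signal as the level, so this is not a separate observation. In humans the gene can be transcribed together with its neighbour, and whether the probe also reads such a transcript in the monkey was not tested.

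NPY encodes neuropeptide Y, which in cortex is made by interneurons that often also make SST. It stood within a narrow range in SD animals, at 8.08, 8.36, 8.27 and 8.04. HFS animals spread from 7.31 through 7.99 to 8.55, and 6 of 10 lay below every SD animal. HFS+R animals ran from 7.66 through 8.09 to 8.56. HFS stood -0.31 from SD (SE 0.18, adjusted p = 0.471), HFS+R 0.21 from HFS (SE 0.13, adjusted p = 0.301) and HFS+R -0.10 from SD (SE 0.18, adjusted p = 0.814), none past the threshold. With the oligodendrocyte markers as a covariate, the NPY difference in HFS+R vs HFS was 0.05 (adjusted p = 0.862). The mean scaled level of these markers itself differed between the diets (-0.30 in HFS and 0.37 in HFS+R). The fit therefore cannot tell it apart from diet, and its part was not tested.

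SST, somatostatin, is the peptide of dendrite-targeting interneurons. Its 4 SD levels were 9.87, 9.63, 10.89 and 9.84. HFS animals ran from 9.44 through 10.01 to 10.62 and HFS+R animals from 9.02 through 10.11 to 10.84. The ranges of the 3 diets lay over each other. The means were 10.06, 10.01 and 10.04, and the difference of 0.03 in HFS+R vs HFS had an SE of 0.21 (adjusted p = 0.939). Its 95% interval, 0.75-fold to 1.39-fold, shows how large a change could have gone unseen.

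CRH, corticotropin-releasing hormone, is made in cortex by a subset of interneurons. It was at 9.08, 9.23, 9.12 and 8.35 in SD animals, from 8.54 through 8.89 to 9.34 in HFS and from 8.39 through 8.93 to 9.47 in HFS+R. The diets overlapped throughout, and the difference in HFS+R vs HFS was 0.04 (SE 0.13, adjusted p = 0.87).

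CCK, cholecystokinin, is the peptide of one class of basket cells and is also made by excitatory neurons. It stood at 7.73, 7.33, 8.05 and 7.18 in SD animals, from 7.14 through 7.51 to 8.19 in HFS and from 7.17 through 7.63 to 8.18 in HFS+R. The 3 ranges were nearly the same, and the difference in HFS+R vs HFS was 0.10 (SE 0.13, adjusted p = 0.634).

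ADCYAP1 encodes PACAP, a relative of VIP that shares receptors with it. Its levels were 6.50, 6.52, 7.32 and 6.03 in SD animals, from 6.03 through 6.42 to 6.59 in HFS and from 6.04 through 6.37 to 6.90 in HFS+R. SD replicate 3 stood above all other animals. HFS stood -0.25 from SD (SE 0.17, adjusted p = 0.553) and HFS+R 0.04 from HFS (SE 0.13, adjusted p = 0.884). Without SD replicate 3, the array with the fewest detected probes, the value in HFS vs SD was -0.0034.

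**Figure D3:**
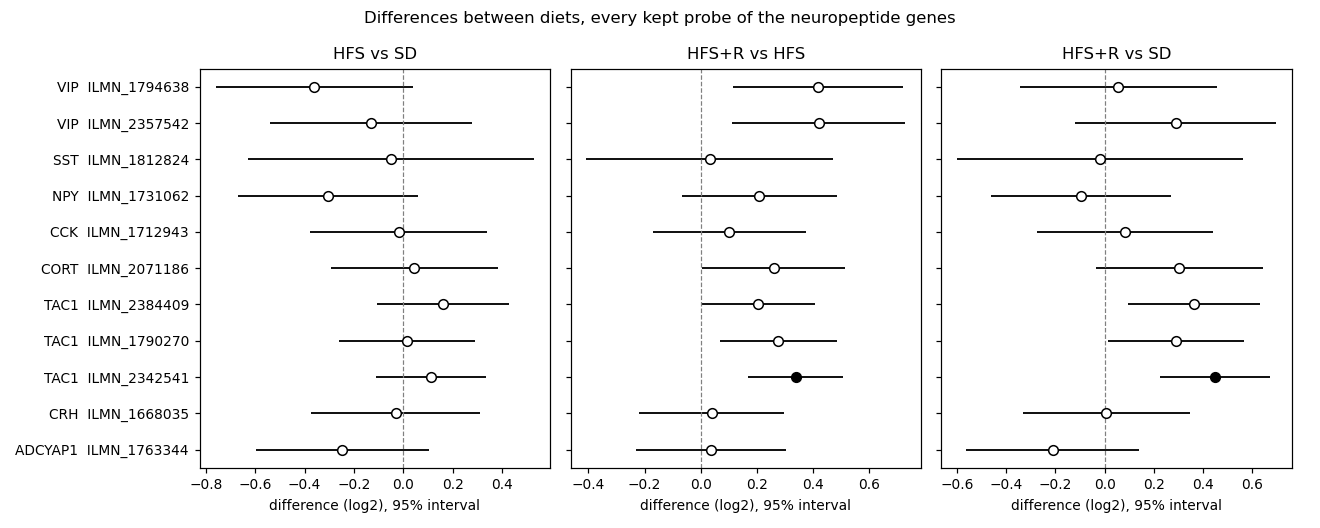
Difference between diets (log2, horizontal axis) for each of the 11 kept neuropeptide probes, with 95% intervals, in HFS vs SD, HFS+R vs HFS and HFS+R vs SD; filled points have an adjusted p under 0.05 over 15531 probes. The filled points are TAC1 ILMN_2342541, at 0.34 in HFS+R vs HFS and 0.45 in HFS+R vs SD.

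Animals on the same diet differed widely in these transcripts. The SD of the SST level around the diet means was 0.52 on the log2 scale, higher than for 98.1% of genes, where the median gene had 0.17. VIP had an SD of 0.36 (94th percentile), NPY 0.32, CCK 0.32, ADCYAP1 0.31, CRH 0.30 and CORT 0.30. TAC1 was the steadiest of the 8, with 0.23 (75.6th percentile). For SST, the highest HFS+R animal was 3.52-fold above the lowest, and the same ratio was 2.27-fold within HFS and 2.40-fold within SD. Since the RNA came from bulk tissue, fewer cells of a type and less RNA per cell cannot be told apart for any of these genes.

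Part of this variation was shared between the genes. After subtraction of the diet means, 8 pairs, chosen with earlier results of these data known, were compared over the 24 animals by permutation within diets (2-sided, 100000 resamples), with p-values adjusted over the 8 pairs. VIP and CRH went together (r = 0.68, permutation p = 0.00045, adjusted p = 0.0036; Spearman's rho = 0.62, p = 0.0019, adjusted p = 0.0076). So did SST and CORT (r = 0.62, permutation p = 0.00327, adjusted p = 0.0131; rho = 0.65, p = 0.0017, adjusted p = 0.0076) and, less closely, SST and CRH (r = 0.52, permutation p = 0.0154, adjusted p = 0.041; rho = 0.52, p = 0.0129, adjusted p = 0.0344). CORT was not detected on 7 of the 24 arrays, so its levels were close to the background. Without the 2 animals farthest from the median of the first gene, r was 0.62 for VIP and CRH, 0.63 for SST and CORT, and 0.51 for SST and CRH. Within the 10 HFS and the 10 HFS+R animals taken alone, r was 0.85 and 0.63 for VIP and CRH, 0.50 and 0.67 for SST and CORT, and 0.60 and 0.64 for SST and CRH.

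SST and NPY, which are often made by the same interneurons, showed no such relation (r = 0.04, permutation p = 0.846, adjusted p = 0.859; rho = 0.05, p = 0.83, adjusted p = 0.938). Within diets r was 0.24 in HFS and -0.16 in HFS+R, and it was 0.20 without the 2 farthest animals. The remaining 4 pairs did not pass either: NPY and CORT had r = 0.24 (permutation p = 0.221, adjusted p = 0.442), CCK and ADCYAP1 0.14 (0.585 and 0.78), VIP and CCK 0.04 (0.859 and 0.859), and TAC1 and SST -0.17 (0.426 and 0.682). Their rho values were 0.33, 0.02, 0.16 and -0.14, with adjusted permutation p-values of 0.223, 0.938, 0.713 and 0.713. CCK and ADCYAP1 had r = -0.83 within HFS and 0.13 within HFS+R, so the pooled value stands for neither diet.

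**Figure D4:**
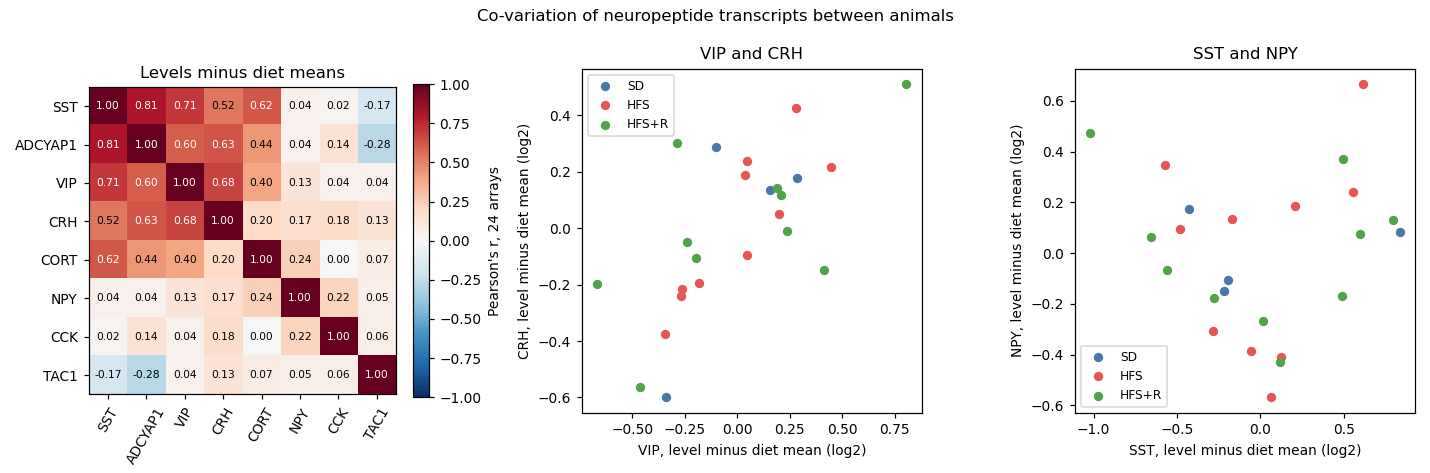
Left, Pearson's r between the levels of the 8 neuropeptide genes over 24 animals after subtraction of diet means; middle and right, these residuals (log2) for VIP against CRH and for SST against NPY, 1 point per animal coloured by diet. SST, ADCYAP1, VIP and CRH had r from 0.52 to 0.81 with each other over the 24 animals, and lower r with NPY, CCK and TAC1. Within HFS alone, r was 0.25 for VIP with ADCYAP1 and 0.36 for CRH with ADCYAP1.

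Described over all 28 pairs of the 8 genes, without a test, 7 pairs had r over 0.5 and all lay among SST, VIP, CRH, ADCYAP1 and CORT. The closest was SST with ADCYAP1 (r = 0.81, 0.64 within HFS and 0.91 within HFS+R), followed by SST with VIP (r = 0.71). Other pairs of ADCYAP1 were weaker within HFS: r was 0.248 with VIP and 0.358 with CRH, against 0.724 and 0.775 within HFS+R. Without the 2 farthest animals these 2 pairs had r = 0.477 and 0.48 over the diets. ADCYAP1 was not detected on 8 of the 24 arrays. NPY, CCK and TAC1 stayed between -0.28 and 0.24 with every other gene. Replicate 10 of HFS+R was highest in its group for SST, VIP, CRH and ADCYAP1, and in SD replicate 3 was highest for SST, VIP, CCK, CORT and ADCYAP1. The number of probes detected on the array correlated with the residuals of SST and ADCYAP1 at r = -0.59 each, with CORT at -0.42, VIP at -0.26 and CRH at -0.09, and, outside these genes, with TAC1 at 0.50, NPY at 0.05 and CCK at 0.09. The mean level of 15 interneuron genes correlated with VIP at 0.72, SST at 0.68, ADCYAP1 at 0.59, CRH at 0.42 and CORT at 0.36, and with NPY at 0.23, TAC1 at -0.04 and CCK at -0.17. The part of array quality and of interneuron content in these correlations was not tested.

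The genes whose residuals were most like those of each neuropeptide gene were taken as the 3 with the highest r over the 24 animals among all 9884 genes, as a description. For SST these were CBLN2, GAP43 and SERPINE2 (r = 0.84, 0.83 and 0.82). For VIP they were RAP2A (0.87), CALB2 (0.78) and PRNP (0.77). CALB2 encodes calretinin, a calcium-binding protein found in many VIP interneurons. ADCYAP1 was closest to CCKBR (0.82), a cholecystokinin receptor, then to CBLN2 (0.81) and SST (0.81), and CRH to SCG2 (0.74), a granin of dense-core vesicles, HES4 (0.73) and ANKRD55 (0.71, detected on 9 arrays). NPY was closest to SEPTIN3 (0.78), TOX (0.77) and TMLHE (0.76), and CCK to PLLP (0.74), a myelin protein, FAM53B (0.71) and TOR1A (0.70). For TAC1 the genes were C2orf42 (0.84), C11orf58 (0.81, detected on 7 arrays) and MTMR7 (0.80), and for CORT they were COG5 (0.75), GABRA3 (0.68) and TTC3 (0.68, detected on 5 arrays).

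The machinery around the peptides was read from lists. Of 24 receptor and binding protein genes for these peptides 6 were kept and 16 were detected on no array, among them NPY1R, OPRM1 and VIPR2. SSTR2, a somatostatin receptor, fell 0.63-fold in HFS+R vs SD (means 7.79 ± 0.25 and 8.45 ± 0.29, SD, n = 10 and 4; log2 difference -0.66, SE 0.15, adjusted p = 0.00902), and all 10 HFS+R animals lay below every SD animal. Without SD replicate 1 its adjusted p was 0.0557, and with the replicate number as a block it was 0.391. The value for SSTR2 was -0.41 in HFS vs SD (adjusted p = 0.287) and -0.25 in HFS+R vs HFS (adjusted p = 0.138). The other 5, CCKBR, NPY5R, VIPR1, TACR3 and CRHBP, did not pass in any comparison. Thus 1 of the 6 kept genes was called in HFS+R vs SD, where 6.3% of all genes were.

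Of 26 genes for the cutting of precursors and for dense-core vesicles 17 were kept. In HFS+R vs HFS 1 rose, 1 fell and 15 did not pass, where 16% of all genes were called. Their median was 0.06 against 0.02 over all genes. In HFS+R vs SD 1 of the 17 was called, where 6.3% of all genes were. PCSK1N, which encodes proSAAS, an inhibitor of a prohormone convertase, fell 0.78-fold in HFS+R vs HFS (means 10.75 ± 0.14 and 11.11 ± 0.18, SD, n = 10 each; log2 difference -0.37, SE 0.07, adjusted p = 0.00238). With arrays scaled by their median, which moved the median of all genes to 0.11, the value for PCSK1N was -0.16 (adjusted p = 0.253). SCG5, a chaperone of another prohormone convertase, rose 1.24-fold (log2 difference 0.31, SE 0.11, adjusted p = 0.0437), and this call was lost in 12 of 24 fits that each left out 1 array. CPE, carboxypeptidase E, which trims the cut peptides, rose 1.25-fold in HFS+R vs SD (log2 difference 0.32, SE 0.10, adjusted p = 0.0486), and 15 of 24 such fits lost that call. It was also lost in 7 of 12 other settings, among them quantile normalization (adjusted p = 0.0813), neqc (0.0975) and median scaling (0.23, adjusted p = 0.591), and that of SCG5 in 3 of 12. Of 14 kept genes among 46 other neuropeptides (GRP, TAC3 and CARTPT among them), 0 passed with limma in any comparison and 0 had an unadjusted p under 0.05; their median was -0.05 in HFS+R vs HFS.

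**Figure D5:**
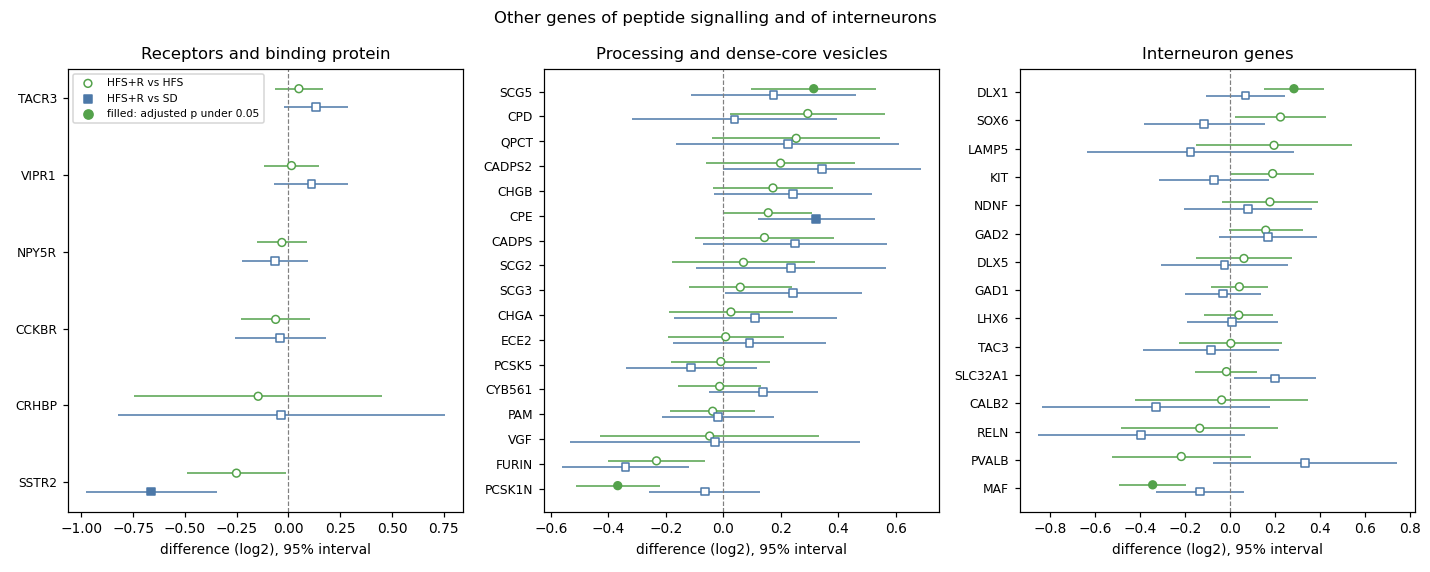
Difference (log2, horizontal axis) in HFS+R vs HFS (circles) and HFS+R vs SD (squares), with 95% intervals, for kept genes of peptide receptors and CRHBP, of peptide processing and dense-core vesicles, and of interneurons; filled symbols have an adjusted p under 0.05. SSTR2 (-0.66) and CPE (0.32) are filled against SD, and PCSK1N (-0.37), SCG5 (0.31), DLX1 (0.29) and MAF (-0.34) against HFS.

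Genes of the cells that make the peptides were also read. Of 15 kept interneuron genes (TAC3 also stood on the list of other neuropeptides) in HFS+R vs HFS, 1 rose, 1 fell and 13 did not pass (16% of all genes were called), with a median of 0.04 against 0.02 over all genes. In HFS vs SD 0 of the 15 passed with limma, while 6 had an unadjusted p under 0.05 (12.6% of all genes), and the values ran from -0.37 to 0.55. DLX1, a transcription factor of interneurons, rose in HFS+R vs HFS (log2 difference 0.29, SE 0.06, adjusted p = 0.00613), whereas its second probe gave 0.05 (adjusted p = 0.717). MAF, a transcription factor found in SST and parvalbumin interneurons and also in other cells, fell (log2 difference -0.34, SE 0.07, adjusted p = 0.00403), although with median scaling it gave -0.19 (adjusted p = 0.215). In HFS vs SD DLX1 gave -0.22 (adjusted p = 0.307) and MAF 0.21 (adjusted p = 0.355). In HFS+R vs SD DLX1 gave 0.07 (adjusted p = 0.70) and MAF -0.13 (adjusted p = 0.467). GAD1, which makes GABA, gave 0.04 in HFS+R vs HFS (adjusted p = 0.674). The mean scaled level of the interneuron list ran from -0.15 to 0.55 in SD, from -0.51 to 0.41 in HFS and from -0.46 to 0.82 in HFS+R.

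Markers of other cells were read in the same comparisons. For oligodendrocytes, 3 of 13 genes rose in HFS+R vs HFS (MOG 0.39, UGT8 0.43 and ERMN 0.32) and 0 fell, where 16% of all genes were called. ERMN was detected on 9 of 24 arrays, close to the background. The mean scaled level of the 13 genes ran from -1.95 to 0.71 in HFS and from -0.28 to 1.47 in HFS+R. With the array SD as a covariate, UGT8 gave 0.25 (adjusted p = 0.199) and ERMN 0.22 (adjusted p = 0.139), while MOG kept its call. Of 10 astrocyte genes GJA1 (0.56) and SLC4A4 (0.51) rose and ALDH1L1 (-0.32) fell. Of 13 excitatory neuron genes 1, BCL11B (0.24), rose in this comparison. In HFS+R vs SD 2 of these 13 were called, where 6.3% of all genes were: TBR1 (0.50) rose and NEUROD2 (-0.39) fell. In HFS+R vs SD 1 of 13 oligodendrocyte genes was called, MOG, which rose (0.42, adjusted p = 0.00469). Of the 10 astrocyte genes 1 was called there, ALDH1L1, which fell (-0.57, adjusted p = 0.00878). Of 9 endothelium genes 1 was called in HFS+R vs HFS, TEK, which rose (0.28). Only 3 of these 9 were above 0, and their median was -0.03. Of 5 kept genes from a list for hippocampus and amygdala 1 was called in HFS+R vs HFS, NR3C2, which rose (0.24). In the same comparison 0 of 9 microglia genes passed with limma, 0 having an unadjusted p under 0.05. The second probes of TEK and NR3C2 gave 0.18 (adjusted p = 0.103) and 0.08 (adjusted p = 0.408). Among the other settings, the call of NR3C2 was lost in 7 of 13, of TEK in 3 of 13 and of BCL11B in 5 of 12 (quantile normalization, adjusted p = 0.0864, and neqc, 0.0948, among them). With median scaling the calls of TBR1 (0.46, adjusted p = 0.113) and NEUROD2 (-0.43, adjusted p = 0.0886) in HFS+R vs SD were lost. The call of ALDH1L1 in HFS+R vs HFS was also lost with median scaling (-0.21, adjusted p = 0.264). Leaving out 1 array lost the call of BCL11B in 8 of 24 fits, of NEUROD2 in 3 and of NR3C2 in 13. For ALDH1L1 the call was lost in 6 fits in HFS+R vs HFS and in 1 fit in HFS+R vs SD. With the oligodendrocyte level as a covariate, the difference in HFS+R vs HFS was 0.46 for VIP (adjusted p = 0.08) and 0.32 for TAC1 ILMN_2342541 (adjusted p = 0.0361).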

How the data were processed

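Cortical RNA of 24 monkeys (SD 4, HFS 10, HFS+R 10, as labelled) was hybridised to HumanHT-12 V4 beadchips of Illumina, 1 array per animal. The authors deposited a signal intensity per probe and array from GenomeStudio 2011.1, which was used unnormalized. Beside it the authors deposited a detection p-value per probe and array. The authors also deposited a Z score (log2 signal minus the array's mean, divided by its SD), which was recomputed from the signals and differed by at most 5e-10. Z scores were multiplied by 1 factor (1.46) and shifted by 6.46, which gives differences in log2 units. This removes differences in the spread of arrays, whether technical or not. Symbols came from the platform annotation (30113 of 47323 probes with 1 symbol, 8 with several, 17202 with none), and for a gene with several kept probes the brightest stood for it. The 3 diets entered 1 limma 3.58.1 model in R 4.3.3 (statmod 1.5.0), with Benjamini-Hochberg adjustment over 9884 genes and a threshold of 0.05. The model was tested on simulated data first. Correlations, permutations and figures used Python 3.11.15 (numpy 2.4.6, matplotlib 3.10.9). Intervals are 95% intervals of the fit. The number of arrays, above all the 4 SD arrays, limits the precision. The labels do not name chips, so a chip effect was not tested.

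All 10 neuropeptide genes and their probes were named, with the genes of each other list that passed a comparison and, for likeness, the 3 closest genes. These genes, lists and tests were chosen with earlier results of these data known. The alternatives tried were neqc (offset 16), quantile normalization, median scaling, no filter, detection on all arrays, every probe, the mean of kept probes, array weights, a fit of the compared groups alone, a replicate block, the array SD or oligodendrocyte markers (mean level of genes each scaled to SD 1) as a covariate, each array left out, and the thresholds of the study (Z ratio over 1.5 in size, p under 0.05 and false discovery rate, printed as above 0.3 in its methods, taken as under 0.3). Fits of the single VIP and TAC1 probes under these settings were added after seeing the data. The labels do not say that replicate numbers pair the animals. Same-numbered animals correlated in their deviations at over 0.1 in 1 of 4, 2 of 10 and 0 of 4 pairs. Animals with different numbers were not compared in this way, so these values do not decide whether a pairing exists.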

Additional observations from a re-analysis of the deposited data

Results flagged for a closer look

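Each of the 11 kept neuropeptide probes was looked at in each diet for an animal far from the others, by Dixon's ratio of the gap to the nearest animal over the whole range, in 33 sets of levels. Chance flags about 5% of such sets, and 2 were flagged. The second VIP probe, ILMN_2357542, stood at 8.83 in HFS+R replicate 10, where the next animal was at 8.03. The same animal was highest in HFS+R for SST, CRH and ADCYAP1. CRH stood at 8.35 in SD replicate 4, where the next animal was at 9.08, and the same animal was lowest in SD for VIP, NPY, CCK, TAC1 and ADCYAP1.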

How the results depend on the processing

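Of 291 values of the 8 member genes under the settings other than leaving out an array, 257 kept their sign and their side of the threshold, 8 came to pass it and 26 changed sign, none of the last being over 0.225 in size. In HFS+R vs HFS, 94 of 97 were above 0. The number of members called in HFS+R vs HFS, 0 in the report, was 1 with median scaling, with detection on all arrays, with array weights and with every probe by itself, 2 with the mean of the kept probes, and 3 with the thresholds of the study (26.4% of all genes). In HFS+R vs SD it was 1 with every probe by itself, with the array SD as covariate and with the thresholds of the study (17.6% of all genes). Leaving out each array in turn gave 0 to 1 members called in HFS+R vs HFS and 0 to 1 in HFS+R vs SD. VIP in HFS+R vs HFS passed in 4 of 13 settings, with adjusted p from 0.0171 to 0.101, and without HFS replicate 8 or HFS+R replicate 1, 3 or 7 (0.0343, 0.0307, 0.0259 and 0.0481). Without HFS+R replicate 10, the animal with the highest VIP level, the VIP difference was 0.33 (adjusted p = 0.0973), the lowest of the 24 such fits. TAC1 in HFS+R vs SD passed without SD replicate 1 (0.0285). The probe TAC1 ILMN_2342541 in HFS+R vs HFS passed in all 24 fits without 1 array (0.00387 to 0.0196); in HFS+R vs SD it lost its call without SD replicate 3 or 4, the adjusted p running from 0.00428 to 0.0617, and with median scaling (0.41, adjusted p = 0.132).

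The signs changed as follows. With quantile normalization CCK gave 0.0401 and CRH 0.0007 in HFS vs SD, and CRH -0.0029 in HFS+R vs HFS and -0.0022 in HFS+R vs SD; neqc gave 0.0545, 0.0019, -0.0036 and -0.0017 in the same order. With median scaling TAC1 gave -0.0321 in HFS vs SD, and VIP -0.0075 and CRH -0.0572 in HFS+R vs SD. Array weights gave SST 0.11 and CCK 0.0554 in HFS vs SD, and SST 0.15 and CRH -0.10 in HFS+R vs SD. The array SD as covariate gave CCK 0.0292 and CORT -0.0139 in HFS vs SD. The oligodendrocyte covariate gave CCK 0.0167 in HFS vs SD, -0.0671 in HFS+R vs HFS and -0.0504 in HFS+R vs SD, and SST 0.0784 in the last. The cause was not tested. Leaving out 1 array gave ranges that cross 0 for SST (-0.19 to 0.23 in HFS vs SD, -0.0571 to 0.14 in HFS+R vs HFS, -0.16 to 0.26 in HFS+R vs SD), CRH (-0.23 to 0.064, -0.0178 to 0.10 and -0.19 to 0.10), CCK (-0.15 to 0.14 in HFS vs SD, -0.0487 to 0.24 in HFS+R vs SD), ADCYAP1 (-0.021 to 0.0749 in HFS+R vs HFS, -0.40 to 0.033 in HFS+R vs SD), CORT (-0.18 to 0.19 in HFS vs SD) and VIP (-0.0571 to 0.15 in HFS+R vs SD).

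The replicate block, fitted although the labels do not say that the numbers pair the animals, left 0 members called in each comparison. With the replicate block SST was 0.16 and CRH 0.13 in HFS vs SD, and NPY 0.0526, VIP -0.22 and CRH -0.18 in HFS+R vs SD, over the 4 shared numbers. VIP in HFS+R vs HFS had an adjusted p of 0.0969 with the block, and TAC1 ILMN_2342541 in HFS+R vs SD 0.26 (adjusted p = 0.761). Genes of the other lists called in HFS+R vs SD lost their calls with the block as well. The adjusted p was 0.391 for SSTR2, 0.608 for TBR1, 0.699 for NEUROD2, 0.339 for MOG and 0.593 for ALDH1L1, and CPE was lost too.

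Median scaling moved the median of all genes to 0.11 in HFS+R vs HFS and raised the share of higher calls from 62.1% to 95.1%, against 52.3% with quantile normalization and 52.5% with neqc. In HFS+R vs SD the shares were 35% in the report and 8.31%, 42.4% and 41.6%. Members above the median of all genes in HFS+R vs HFS numbered 8, and 7 with each of these. CORT and ADCYAP1, near background on many arrays, and the 4 SD arrays limit what could be seen.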
